A study of Mus musculus with 6 samples.

Results

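The cell cycle and proliferation genes described here are 38 genes whose products copy DNA or carry out mitosis, out of 49315 genes counted in the libraries. They were chosen by name and by no rule on their values, though earlier results of these data were known. They comprise 22 genes best known from the G2 and M phases and 16 best known from the S phase. All 38 symbols were found, each with one Ensembl identifier in the GENCODE M21 annotation. RNA sequencing had been performed on liver F4/80-positive cells, labelled Kupffer cells (the macrophages that reside in liver sinusoids), which were captured with magnetic beads after collagenase perfusion and a slow spin that pellets most hepatocytes. The 6 libraries came from 3 WT mice and 3 *Lpcat3*KOMac mice, 1 numbered mouse per library as the labels read, on a C57BL/6N background. The WT mice were *Lpcat3* fl/fl / LysM+/+, so they carried the floxed alleles without Cre, and the *Lpcat3*KOMac mice were their *Lpcat3* fl/fl / LysMCre/+ littermates. All mice received a high-fat diet with 60% fat for 16 weeks, started between 8 and 12 weeks of age. The Cre is driven by the *Lyz2* locus, which other myeloid cells such as neutrophils also use, and the animals of the study were of both sexes, with no sex given for single libraries. The comparison asks whether loss of the phospholipid-remodelling acyltransferase LPCAT3 from these cells went with a difference in the transcripts of cell division.

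Most macrophages of a tissue are not dividing at a given moment, and Kupffer cells are known to maintain themselves largely by local division, with CSF1 and IL-34 acting through the receptor CSF1R as main growth signals. Entry into the cycle starts when D-type cyclins with CDK4 or CDK6 inactivate the RB pocket proteins and release E2F factors, which switch on the genes of DNA replication. The G2/M genes are switched on later, by the B-MYB-MuvB complex and FOXM1, and in resting cells the DREAM complex keeps both sets silent. The products of *Cdkn2a* to *Cdkn2d* (the INK4 inhibitors) and of *Cdkn1a* to *Cdkn1c* restrain the CDKs.

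The members share promoter letters that their choice by name did not use. A promoter window reached from 250 bases before to 50 bases after a gene's start in RefSeq on GRCm38.p6, and 32 of the 38 genes had one, while *Ccna2*, *Aurkb*, *Kif20a*, *Tpx2*, *Mcm4* and *Gins2* had none in the table used. The following kinds of letters were searched on both strands, namely the cell cycle homology region (CHR) type TTTGAA or TTTAAA, the CCAAT box, and the E2F type TTTCCCGC, TTTGGCGC, TTTCGCGC or TTTGCCGC. CHR-type letters were in the windows of 16 of 18 G2/M members (88.9%) and of 5 of 14 S-phase members (35.7%), against 30.6% of the 27025 genes with a window. E2F-type letters stood the other way round, in 1 of 18 G2/M members (5.56%), *Cdk1*, and in 7 of 14 S-phase members (50%), against 2.6% of all genes. The CCAAT box was in 88.9% of the G2/M members, 64.3% of the S-phase members and 41.1% of all genes. TTTCGCGC and TTTGGCGC can overlap their own reverse complement. Counted over all kinds of letters together, within or between kinds, 6 of the members' windows held overlapping matches.

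The 150 bases before the RefSeq start are shown for 7 members, chosen after their motifs and values were seen. They set mitotic promoters with CHR-type letters and CCAAT boxes beside replication promoters with E2F-type letters and beside *Kif23*. Unlike the other G2/M members, *Kif23* had a lower level in *Lpcat3*KOMac mouse 2 than in mouse 3, while its order in WT mice 1 and 3 was theirs. Each stretch is read 5′ to 3′ on the gene's strand and ends just before the start. Capitals mark matches on either strand, so that ATTGG is a CCAAT box, TTCAAA a CHR-type match and GCGCCAAA an E2F-type match on the opposite strand. The windows are chr7:135716380-135716529 on the minus strand for *Mki67*, chr10:69352913-69353062 minus for *Cdk1*, chr11:99024190-99024339 minus for *Top2a*, chr4:118437344-118437493 minus for *Cdc20*, chr9:61946800-61946949 minus for *Kif23*, chr8:75109359-75109508 plus for *Mcm5* and chr1:128359706-128359855 minus for *Mcm6*, all in GRCm38.p6.
Mki67: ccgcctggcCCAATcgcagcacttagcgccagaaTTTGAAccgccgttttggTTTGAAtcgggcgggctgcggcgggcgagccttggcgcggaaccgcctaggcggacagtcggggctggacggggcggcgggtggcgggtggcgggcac
Cdk1: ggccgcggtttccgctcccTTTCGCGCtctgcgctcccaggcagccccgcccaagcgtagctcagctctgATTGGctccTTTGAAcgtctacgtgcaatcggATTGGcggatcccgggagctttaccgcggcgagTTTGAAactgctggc
Top2a: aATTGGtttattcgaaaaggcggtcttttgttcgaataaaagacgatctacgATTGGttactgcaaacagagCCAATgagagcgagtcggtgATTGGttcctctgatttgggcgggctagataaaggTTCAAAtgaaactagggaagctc
Cdc20: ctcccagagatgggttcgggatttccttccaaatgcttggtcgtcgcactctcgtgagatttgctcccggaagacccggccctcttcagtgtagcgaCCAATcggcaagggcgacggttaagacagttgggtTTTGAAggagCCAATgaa
Kif23: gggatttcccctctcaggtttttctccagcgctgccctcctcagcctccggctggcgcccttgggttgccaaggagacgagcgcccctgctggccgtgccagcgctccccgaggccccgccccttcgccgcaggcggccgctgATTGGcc
Mcm5: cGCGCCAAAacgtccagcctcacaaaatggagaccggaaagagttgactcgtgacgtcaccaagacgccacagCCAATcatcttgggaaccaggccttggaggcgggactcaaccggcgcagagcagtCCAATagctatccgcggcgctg
Mcm6: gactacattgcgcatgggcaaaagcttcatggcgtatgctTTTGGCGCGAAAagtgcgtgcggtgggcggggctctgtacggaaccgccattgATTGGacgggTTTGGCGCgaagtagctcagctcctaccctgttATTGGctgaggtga

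The printed stretch of *Mki67* holds a pair of CHR-type matches close together with a CCAAT box before them. *Cdk1* holds all 3 kinds of letters, *Top2a* has 4 CCAAT boxes and *Mcm6* has E2F-type letters at separate places. *Kif23* has no CHR-type match in this stretch and 1 in the wider window. This is not particular to *Kif23*, since the same 150 bases hold none in *Cenpf*, *Bub1b*, *Nusap1*, *Bub1*, *Aurka*, *Cenpe*, *Cdca8*, *Ccnb2* and *Birc5* either. The last bases of the *Cdk1* and *Cdc20* stretches lie inside the gene as GENCODE M21 draws it, since its starts differ from those of RefSeq. A match is a description of the letters and says nothing about which factor was bound in these cells.

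**Figure D1:**
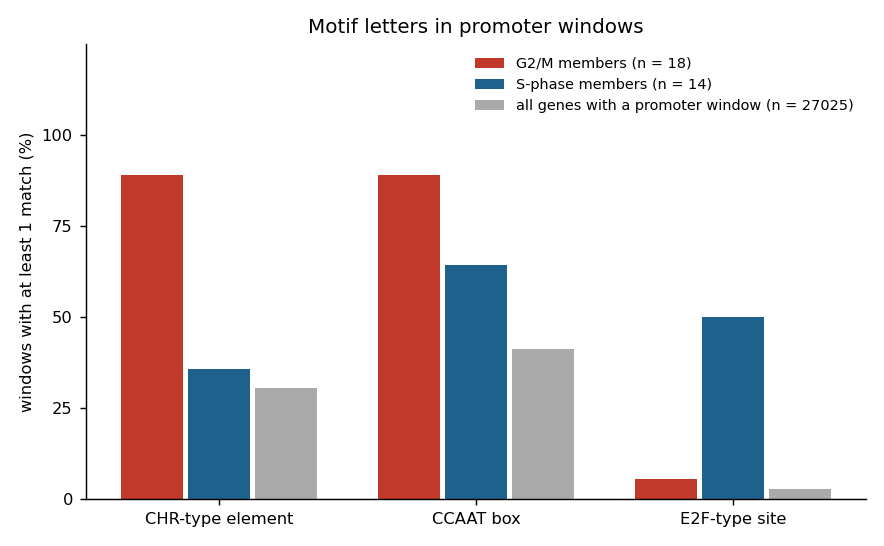
Share of promoter windows (vertical axis, %) with at least 1 match to each kind of letters, for 18 G2/M members, 14 S-phase members and all 27025 genes with a window. CHR-type letters were most frequent in the G2/M members (88.9%) and E2F-type letters in the S-phase members (50%).

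The libraries held between 44954224 and 71392812 counts assigned to genes, and 16134 genes passed the filter on low counts. Levels are given as TMM-scaled CPM (counts relative to the library total), and differences as log2 fold changes of *Lpcat3*KOMac over WT with their standard error. In mice 1, 2 and 3 of each group, the order kept below, *Lpcat3* had levels of 85, 66.2 and 61.2 CPM (WT) and 19.5, 33.3 and 19.4 CPM (*Lpcat3*KOMac), so the groups did not overlap in the labelled direction (log2 fold change -1.56, SE 0.264, unadjusted p = 0.00119, edgeR). edgeR's quasi-likelihood test called 0 of the 16134 genes (0%) at an adjusted p under 0.05, *Lpcat3* included, with 426 genes (2.64%) at an unadjusted p under 0.05, and DESeq2 called 12 genes, *Lpcat3* among them. Kupffer cell markers were abundant in every library, with a summed level of the 7 genes between 19260 and 36508 CPM. Transcripts of hepatocytes stood apart in WT mouse 1 and *Lpcat3*KOMac mouse 2, where *Alb* was at 13054 and 9289 CPM against 1205 to 3138 CPM in the other libraries, and the direction, overlap and p counts of the 38 genes are also given without these libraries.

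All 38 genes were expressed, and all 38 passed the filter. The lowest count of any of them was 141, of the checkpoint kinase gene *Bub1* in *Lpcat3*KOMac mouse 3, and the highest 8559. Per kilobase of annotated exon, the most abundant was *Pcna*, the sliding clamp of replication, with a mean level of 56.5 CPM per kb, and the least abundant was *Cenpf*, a kinetochore protein, with 0.349 CPM per kb. The median was 3.55 CPM per kb over the 38 genes, 2.88 over the G2/M members and 7.19 over the S-phase members, against 3.72 over all genes tested. Exon lengths count every annotated isoform, so levels per kb are lower bounds for genes with long rare isoforms. In RNA of a whole cell population, fewer dividing cells and less of these mRNAs in each dividing cell cannot be told apart.

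No difference between genotypes was detected for any of the 38 genes. Of the 38, 0 were called by edgeR and 0 by DESeq2, and 0 had an unadjusted p under 0.05 in either, where 2.64% of all genes did in edgeR. In 0 of the 38 did the groups not overlap, while all 3 *Lpcat3*KOMac values lay above all 3 WT values in 2.29% of all genes and below them in 5.2%. The log2 fold changes ranged from -0.19 (*Tk1*) to 0.21 (*Ccnb1*), with a median of -0.02 (G2/M members 0.03, S-phase members -0.08) against -0.04 over all genes tested. They were below 0 for 23 genes and above 0 for 15, and below 0 for 59.9% of all genes. With total counts in place of TMM scaling 9 were below 0, and with DESeq2's size factors 19. A change of scaling moves the log2 fold changes of all genes together. Here and below, no share over all genes is given for these scalings. The smallest unadjusted p was 0.17 (*E2f1*, edgeR) and every adjusted p was 0.9999.

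These libraries bound the differences unevenly. The 95% intervals of the log2 fold changes reached from -1.06 to 1.22 at their widest, with a median half-width of 0.867 for the G2/M members and 0.535 for the S-phase members. Standard errors ran from 0.0872 (*Pcna*) to 0.423 (*Cenpe*). For *Pcna* the interval was -0.29 to 0.14, whereas for *Mki67* it was -1.01 to 0.85.

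**Figure D2:**
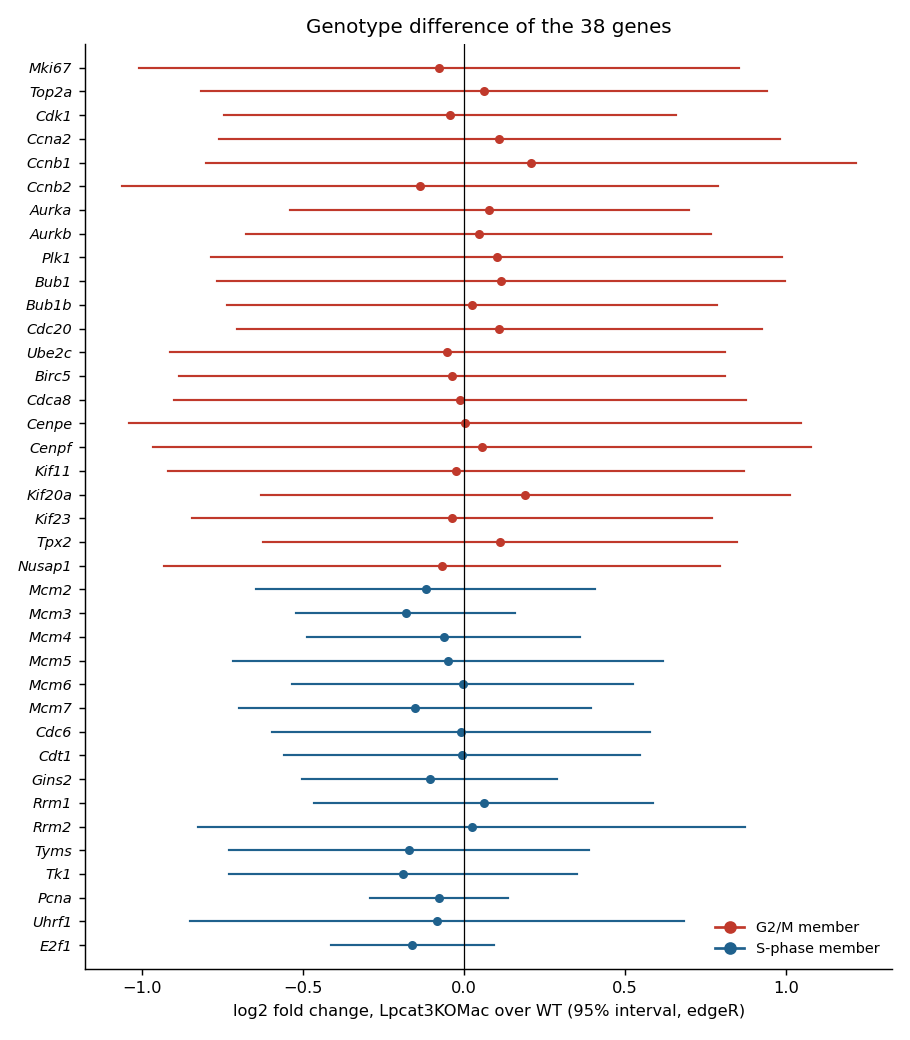
Log2 fold change of *Lpcat3*KOMac over WT (horizontal axis) with a 95% interval derived from edgeR's F test for each of the 38 genes, 3 mice per group, G2/M members in red and S-phase members in blue. Every interval includes 0, and the estimates lie between -0.19 and 0.21.

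Mice of 1 genotype differed more than the genotypes did. The mean log2 CPM of the 38 genes reached 3.70 (mouse 1), 3.99 (mouse 2) and 4.21 (mouse 3) in the WT group and 4.003, 4.32 and 3.44 in *Lpcat3*KOMac mice of these numbers. The highest and the lowest library were thus both *Lpcat3*KOMac, mice 2 and 3, 1.84-fold apart, and the WT mice spanned 1.43-fold. The group means were 3.97 ± 0.259 in WT and 3.92 ± 0.445 in *Lpcat3*KOMac (SD, n = 3), a difference of -0.05 that was smaller than either SD. The range was 2.07-fold for the G2/M members and 1.56-fold for the S-phase members. Over all genes tested the corresponding mean spanned 1.16-fold. The scaling tends to hold that mean level, so it is no measure for a short list. The other gene lists described below spanned from 1.17-fold (CDK inhibitors, pocket proteins and antiproliferative genes) to 12.3-fold (hepatocyte genes).

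Most of the genes shared this pattern. *Lpcat3*KOMac mouse 2 had the highest level of 27 of the 38 genes, against 12.1% of all genes tested, and mouse 3 the lowest level of 32, against 12.4%. Both held for 27 genes, 17 of the G2/M members and 10 of the S-phase members, against 2.88% of all genes. These counts were chosen after the values were seen, and genes of 1 programme are not independent of each other. The median ratio of mouse 2 to mouse 3 was 2.22 for the G2/M members and 1.70 for the S-phase members, with 1.01 over all genes. In the WT group, mouse 3 was above mouse 1 in 36 of 38 genes, by a median of 1.41-fold, and in 54.2% of all genes.

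**Figure D3:**
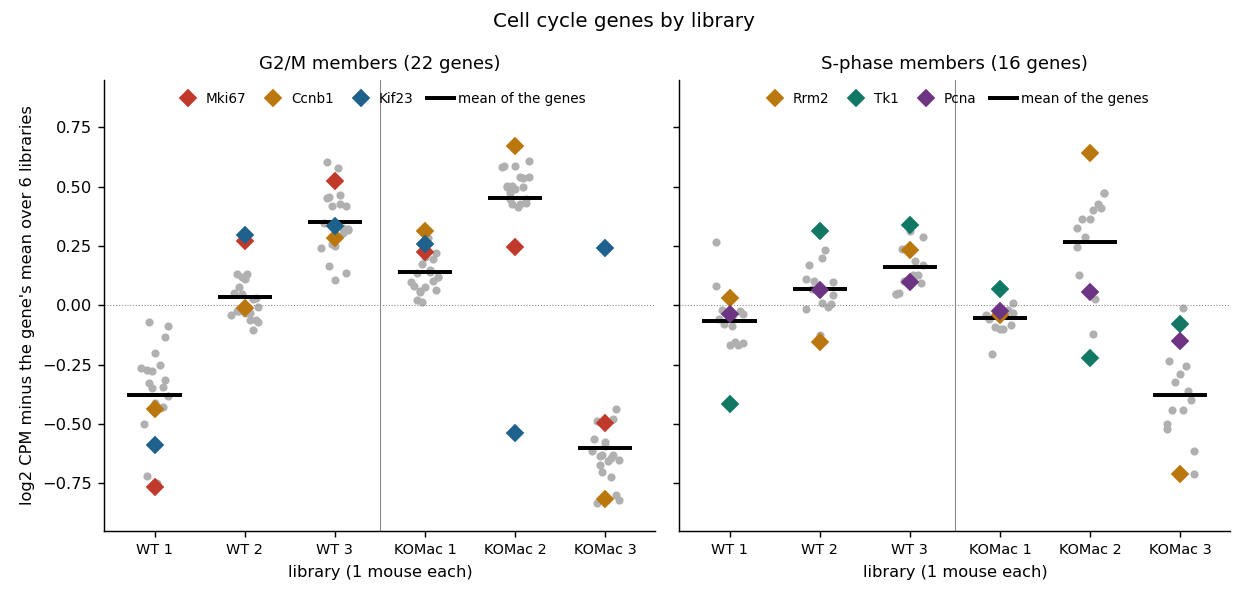
Log2 CPM of each gene minus its own mean over the 6 libraries (vertical axis) in each library (horizontal axis, KOMac for *Lpcat3*KOMac), for 22 G2/M and 16 S-phase members, with black bars for the mean of the genes and diamonds for named genes. *Lpcat3*KOMac mouse 2 holds the highest and mouse 3 the lowest mean in both panels, while *Kif23* is low in mouse 2 and *Pcna* stays near 0 in every library.

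Leaving out single mice moved the direction of the whole list. Without *Lpcat3*KOMac mouse 2, 37 of the 38 log2 fold changes were below 0 (55.1% of all genes), and without *Lpcat3*KOMac mouse 3, 4 were (53.1% of all genes). Without WT mouse 3, 9 were below 0 (57.1% of all genes). Groups that did not overlap were then found for 6 genes without WT mouse 1 (32.2% of all genes in either direction), 8 without *Lpcat3*KOMac mouse 2 (14.1%) and 3 without *Lpcat3*KOMac mouse 3 (14.4%). Without WT mouse 1, 3 genes had an unadjusted p under 0.05 (12.3% of all genes), and without *Lpcat3*KOMac mouse 2, 1 gene did (1.48%). With both hepatocyte-rich libraries left out, 2 mice against 2, all 38 log2 fold changes were below 0 (54.2% of all genes) with a median of -0.35, the groups did not overlap for 19 genes (41.2%), and 4 had an unadjusted p under 0.05 (11%). In that setting and with each mouse left out, 0 of the 38 genes were called, and their smallest adjusted p over all settings was 0.235 (*Mcm7*, edgeR, both hepatocyte-rich libraries left out).

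*Mki67* encodes the nuclear protein Ki-67, the common mark of cycling cells (ENSMUSG00000031004, chromosome 7 of GRCm38, 135689784 to 135716361, minus strand). Its levels were 28, 57.3 and 68.4 CPM in WT and 55.6, 56.4 and 33.8 CPM in *Lpcat3*KOMac. WT mouse 1 was lowest and WT mouse 3 highest, and the *Lpcat3*KOMac values all lay inside the WT range. The means were 51.3 ± 20.9 CPM in WT and 48.6 ± 12.8 CPM in *Lpcat3*KOMac (SD, n = 3; log2 fold change -0.08, SE 0.376; exact permutation test, two-sided p = 0.8, where 3 mice against 3 cannot give a p below 0.1). *Top2a*, the topoisomerase that untangles chromosomes before they part, was at 27.8, 36.6 and 50.3 CPM in WT and at 41.2, 54.5 and 24.0 CPM in *Lpcat3*KOMac, with its extremes in *Lpcat3*KOMac mice 2 and 3 (log2 fold change 0.06, SE 0.356).

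Among the cyclins and their kinase, *Ccnb1*, cyclin B1 of the mitotic entry kinase (chromosome 13 of GRCm38, 100778650 to 100786570, minus strand), had the largest positive estimate. Its levels were 5.51, 7.39 and 9.08 CPM in WT and 9.26, 11.9 and 4.23 CPM in *Lpcat3*KOMac (log2 fold change 0.21, SE 0.409). *Lpcat3*KOMac mouse 2 was 2.80-fold above mouse 3, the widest range of any of the 38 genes, and the WT values lay between them. *Ccna2* (cyclin A2), *Ccnb2* (cyclin B2) and *Cdk1*, the kinase these cyclins activate, had the same highest and lowest libraries, with log2 fold changes of 0.11, -0.14 and -0.04.

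The mitotic kinase genes *Aurka*, *Aurkb* and *Plk1*, which drive spindle poles, chromosome alignment and mitotic entry, ranged 1.82- to 2.22-fold between libraries, again from *Lpcat3*KOMac mouse 3 up to mouse 2. Their log2 fold changes were 0.08, 0.04 and 0.10. Of the genes of the spindle checkpoint and of its target, the anaphase-promoting complex, *Bub1* was at 3.45, 4.73 and 5.73 CPM in WT and at 5.32, 6.73 and 3.00 CPM in *Lpcat3*KOMac (log2 fold change 0.11, SE 0.358). Its partner kinase gene *Bub1b* was at 0.02, *Cdc20*, the activator of the complex, at 0.11 and *Ube2c*, its ubiquitin-conjugating enzyme, at -0.05 in log2 fold change. *Ube2c* was highest in WT mouse 3, not in *Lpcat3*KOMac mouse 2. The chromosomal passenger genes *Birc5* (survivin) and *Cdca8* (borealin), whose products hold Aurora B at the centromere, had log2 fold changes of -0.04 and -0.01.

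Of the 5 kinetochore and kinesin genes, 2 had the common extremes. *Cenpe*, a kinesin that moves chromosomes to the spindle equator, and *Cenpf* were lowest in WT mouse 1 and highest in WT mouse 3. *Cenpf* was at 3.09, 5.01 and 7.74 CPM in WT and at 5.60, 7.21 and 3.63 CPM in *Lpcat3*KOMac (log2 fold change 0.05, SE 0.414). *Kif11*, the motor that separates the spindle poles, followed the common pattern with a log2 fold change of -0.03. *Kif20a*, a kinesin of the central spindle, was at 6.05, 8.70 and 8.68 CPM in WT and at 9.28, 12.1 and 5.33 CPM in *Lpcat3*KOMac (log2 fold change 0.19, SE 0.333).

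*Kif23*, the motor subunit of centralspindlin, which is needed for the final split of the cells, was the most abundant G2/M member per kb (7.09 CPM per kb). It was at 36, 66.3 and 68 CPM in WT and at 64.7, 37.2 and 63.8 CPM in *Lpcat3*KOMac (log2 fold change -0.04, SE 0.327). Its level in *Lpcat3*KOMac mouse 2 was 0.583 times that in mouse 3, the reverse of the other 21 G2/M members, and its low libraries were those rich in hepatocyte transcripts. Whether hepatocyte RNA had a part in this was not tested. The spindle assembly genes *Tpx2* and *Nusap1*, which nucleate and bundle spindle microtubules, had the extremes of the common pattern and log2 fold changes of 0.11 and -0.07.

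The means of the S-phase members spanned less between mice, and 14 of the 16 log2 fold changes were below 0, where 59.9% of all genes were, none of them past the test. With total counts in place of TMM scaling 7 of 16 were below 0, without *Lpcat3*KOMac mouse 3 the count was 3, without *Lpcat3*KOMac mouse 1 or without WT mouse 3 it was 9, and with both hepatocyte-rich libraries left out it was 16. The 6 subunits of the MCM helicase, which opens the double strand, had log2 fold changes between -0.18 and -0.0047, with *Mcm3* at the lower and *Mcm6* at the upper end. *Mcm3* was at 55, 72.1 and 69.7 CPM in WT and at 59.7, 62.4 and 51.3 CPM in *Lpcat3*KOMac (log2 fold change -0.18, SE 0.138). *Mcm5* ranged most among them, 2.12-fold, from 21.7 CPM in *Lpcat3*KOMac mouse 3 to 46 CPM in mouse 2, and *Mcm2*, *Mcm4*, *Mcm6* and *Mcm7* ranged 1.53- to 1.80-fold with the same extremes.

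The licensing factors *Cdc6* and *Cdt1*, which load the helicase, and *Gins2*, a subunit of the complex that activates it, had log2 fold changes of -0.01, -0.01 and -0.11. *Cdc6*, the least abundant S-phase member per kb (1.11 CPM per kb), was at 5.65, 5.77 and 6.12 CPM in WT and at 5.42, 7.64 and 4.36 CPM in *Lpcat3*KOMac (SE 0.239).

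Nucleotide supply was divided. *Rrm2*, the regulated subunit of ribonucleotide reductase, ranged 2.56-fold with the common extremes, and *Rrm1*, its partner subunit, 1.73-fold, with log2 fold changes of 0.02 and 0.06. The salvage enzyme gene *Tk1*, thymidine kinase 1 (chromosome 11 of GRCm38, 117815526 to 117826092, minus strand), was at 48.1, 79.7 and 81.2 CPM in WT and at 67.3, 55.1 and 60.8 CPM in *Lpcat3*KOMac (log2 fold change -0.19, SE 0.220). Its extremes were both WT, and *Lpcat3*KOMac mouse 2 was not high. *Tyms*, thymidylate synthase, was at 8.31, 6.85 and 7.15 CPM in WT and at 6.73, 8.20 and 4.89 CPM in *Lpcat3*KOMac (log2 fold change -0.17, SE 0.227).

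*Pcna* (chromosome 2 of GRCm38, 132249162 to 132253314, minus strand) was the steadiest of the 38 genes. It was at 132, 141 and 145 CPM in WT and at 133, 141 and 122 CPM in *Lpcat3*KOMac, a range of 1.19-fold (log2 fold change -0.08, SE 0.0872). *E2f1*, one of the activating E2F factors, ranged 1.25-fold and was lowest in *Lpcat3*KOMac mouse 2, where most of the other genes were highest (log2 fold change -0.16, SE 0.103). *Uhrf1*, which brings the maintenance DNA methyltransferase to new DNA, followed the common pattern over 2.27-fold (log2 fold change -0.08, SE 0.312).

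Some members overlap genes on the opposite strand, and how strand was treated in counting is not given in the sources used here, so reads of both genes could be mixed there. Shared stretches include 2758 of 4097 exonic bases of *Gins2* with *Gse1*, 1259 of 3796 of *Kif20a* with *Cdc23*, 592 of 2600 of *Ube2c* with *Tnnc2*, which had at most 1 count in a library, and 510 of 4083 of *Ccna2* with *Exosc9*. Per-gene exon length and log2 fold change had a Spearman rho of -0.02 across the 38 genes and of 0.19 across all genes, as a description over genes measured in the same libraries.

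The other genes of the cycle, 144 in 6 lists, were compared in the same fit, and 0 of them were called. Of 48 other G2/M and mitosis genes, 0 rose, 0 fell and 30 had log2 fold changes above 0 (6466 of all 16134 genes tested), with a median of 0.02. That direction rested on single libraries, since 11 of the 48 were above 0 without WT mouse 1, 1 was without *Lpcat3*KOMac mouse 2, and 1 was with both hepatocyte-rich libraries left out. In the last 2 settings 55.1% and 54.2% of all genes were below 0. No such share is given for the fit without WT mouse 1, nor for that without *Lpcat3*KOMac mouse 1 used elsewhere. The level was highest in *Lpcat3*KOMac mouse 2 and lowest in mouse 3 for 30 of the 48 genes, against 2.88% of all genes. The smallest unadjusted p were those of *Pttg1*, securin, at 34, 32.8 and 32.7 CPM in WT and 25.8, 31 and 28.3 CPM in *Lpcat3*KOMac (log2 fold change -0.23, unadjusted p = 0.0555, edgeR), whose *Lpcat3*KOMac values were all below WT like those of 5.2% of all genes, and of *Cdc25b*, a phosphatase that activates CDK1 (-0.27, unadjusted p = 0.289, edgeR).

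Of 40 other genes of DNA replication, 0 were called, 34 had log2 fold changes below 0 (59.9% of all genes) with a median of -0.10, and 17 were highest in *Lpcat3*KOMac mouse 2 and lowest in mouse 3. With total counts alone 21 of the 40 were below 0, without *Lpcat3*KOMac mouse 1 it was 22, without *Lpcat3*KOMac mouse 3 it was 9, and with both hepatocyte-rich libraries left out it was 38. *Rpa2*, a subunit of the single-strand binding protein, was at -0.25 and *Rfc3*, a subunit of the clamp loader, at -0.16 (unadjusted p = 0.112 and 0.31, edgeR). The means of these lists spanned 2.07-fold for the G2/M list and 1.59-fold for the replication list, close to the values of the members of each phase. The 15 transcription factors of the E2F, DREAM and FOXM1 group had 0 called and a span of 1.32-fold, with *E2f2* at 0.32 (unadjusted p = 0.224, edgeR) and *Lin52* of the DREAM complex at -0.18 (unadjusted p = 0.308, edgeR). *Foxm1* itself, named after its values were seen, was at 5.71, 7.55 and 9.56 CPM in WT and at 8.44, 8.39 and 4.53 CPM in *Lpcat3*KOMac.

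The genes of the G1 decision shared the pattern between mice only in part. The mean of the 12 G1 cyclins, CDKs and entry genes spanned 1.23-fold. Of the 12, 0 had both *Lpcat3*KOMac mouse 2 highest and mouse 3 lowest, against 2.88% of all genes. Mouse 3 was lowest for 4 (12.4% of all genes) and mouse 2 highest for 1 (12.1%). The cyclin E genes *Ccne1* and *Ccne2* were 1.84- and 1.77-fold higher in *Lpcat3*KOMac mouse 2 than in mouse 3. The D-type cyclin genes went different ways. *Ccnd2* was at 10.9, 7.57 and 16.6 CPM in WT and at 20.3, 20.7 and 21.4 CPM in *Lpcat3*KOMac, with no overlap (log2 fold change 0.83, SE 0.286, unadjusted p = 0.0283, adjusted p = 0.9999, edgeR). *Ccnd3* was at 67.4, 49.9 and 52.6 CPM in WT and at 49.6, 46.8 and 43.3 CPM in *Lpcat3*KOMac, also with no overlap (log2 fold change -0.28, SE 0.138, unadjusted p = 0.089, edgeR). All 3 *Lpcat3*KOMac values lay above WT in 2.29% of all genes and below WT in 5.2%. Without WT mouse 1, without any 1 of the *Lpcat3*KOMac mice, and without both hepatocyte-rich libraries, 0 of the 12 genes had an unadjusted p under 0.05 (edgeR), where *Ccnd2* alone did with all mice. *Ccnd1*, per kb the most abundant of the 3, was at -0.09.

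Of 16 CDK inhibitors, pocket proteins and antiproliferative genes, 0 were called and 3 had an unadjusted p under 0.05, against 2.64% of all genes, and 2 did with both hepatocyte-rich libraries left out, against 11% of all genes. The count was 1 without WT mouse 3, without *Lpcat3*KOMac mouse 2 and without *Lpcat3*KOMac mouse 3. *Btg2*, an antiproliferative gene that p53 induces, was at 81.2, 106 and 95.1 CPM in WT and at 72.5, 52.8 and 61.9 CPM in *Lpcat3*KOMac (log2 fold change -0.59, SE 0.156, unadjusted p = 0.0097, edgeR). *Ccng2*, a cyclin linked to cell cycle arrest, was at -0.27 (unadjusted p = 0.0229, edgeR), and *Gadd45a*, a stress gene of growth arrest named after its values were seen, at 0.82 (unadjusted p = 0.0258, edgeR). The groups did not overlap for any of these 3 genes, with *Gadd45a* above WT (2.29% of all genes) and *Btg2* and *Ccng2* below (5.2%), and every adjusted p was 0.9999.

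Of the INK4 inhibitor genes, singled out after their values were seen, *Cdkn2a* and *Cdkn2b* had the widest ranges of the 144. *Cdkn2a*, which encodes p16 and p19ARF (chromosome 4 of GRCm38, 89274471 to 89294653, minus strand), was at 23, 32.8 and 29.5 CPM in WT and at 20.5, 5.50 and 71.8 CPM in *Lpcat3*KOMac, a 13.1-fold range. Its neighbour *Cdkn2b* (89306289 to 89311032 of the same chromosome), which encodes p15, was at 4.12, 5.63 and 3.65 CPM in WT and at 4.34, 1.35 and 8.22 CPM in *Lpcat3*KOMac. Both were lowest in *Lpcat3*KOMac mouse 2 and highest in mouse 3, the reverse of the replication and mitosis genes. *Cdkn2c*, which encodes p18, had the same direction as those genes, at 15.4 CPM in mouse 2 and 6.20 CPM in mouse 3. So did *Cdkn2d*, at 5.32 CPM in mouse 2 and 3.38 CPM in mouse 3. A low level in mouse 2 relative to mouse 3 was not particular to *Cdkn2a* and *Cdkn2b*, since the Kupffer cell genes *Marco* and *Timd4* had ratios of 0.052 and 0.19. Between genotypes *Cdkn2a* had a log2 fold change of 0.20 with an interval from -1.97 to 2.36.

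**Figure D4:**
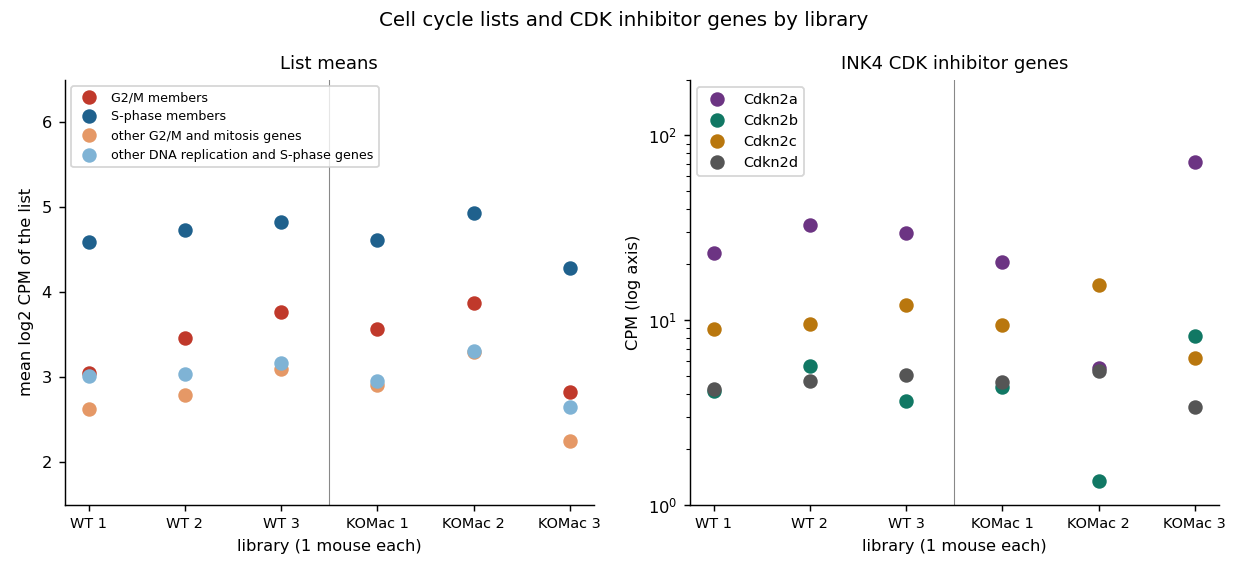
Left, mean log2 CPM of 4 lists (vertical axis) in each library (horizontal axis, KOMac for *Lpcat3*KOMac). Right, CPM of the INK4 inhibitor genes on a log axis. *Lpcat3*KOMac mouse 2 has the highest and mouse 3 the lowest list means, whereas *Cdkn2a* is at 5.50 CPM in mouse 2 and 71.8 CPM in mouse 3. *Cdkn2c* and *Cdkn2d* are highest in mouse 2 and lowest in mouse 3, like the list means.

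Of 13 genes of growth factor control of macrophage division, 0 were called and their mean spanned 1.18-fold. The factor genes *Klf2*, linked to quiescence, at 138, 186 and 160 CPM in WT and 126, 75.4 and 114 CPM in *Lpcat3*KOMac (log2 fold change -0.62, SE 0.220, unadjusted p = 0.0319, edgeR), and the growth factor gene *Csf1* (0.48, unadjusted p = 0.15, edgeR) had the smallest p of this list. *Csf1r* was the most abundant gene of the list per kb (935 CPM per kb) with a log2 fold change of -0.23.

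Markers of other cells did not all stay level where the cell cycle genes moved. The 5 hepatocyte genes summed to 1761 to 18861 CPM in WT and 4438 to 12439 CPM in *Lpcat3*KOMac, highest in WT mouse 1, where the cell cycle mean was second lowest, and next highest in *Lpcat3*KOMac mouse 2, where it was highest. The 6 T and NK cell genes summed to 1.32 to 2.19 CPM in WT and 1.08 to 2.82 CPM in *Lpcat3*KOMac, highest in *Lpcat3*KOMac mouse 2 and lowest in mouse 3 like the cell cycle genes. *Cd3d* lay above WT in every *Lpcat3*KOMac mouse (0.077 to 0.153 against 0.224 to 0.255 CPM), as did 2.29% of all genes. It had only 5, 5 and 7 counts in WT and 13, 12 and 12 in *Lpcat3*KOMac, and *Cd3g* had a log2 fold change of -0.67. *Trbc2* was the most abundant gene of that list per kb, at 0.234 to 0.694 CPM over the 6 libraries. The 7 Kupffer cell genes were lowest in *Lpcat3*KOMac mouse 2, where *Marco* was at 148 CPM and *Timd4* at 123 CPM against 2855 and 645 CPM in mouse 3. *Cd5l* was the most abundant Kupffer cell gene per kb, and *Clec4f* lay below WT in all 3 *Lpcat3*KOMac mice (log2 fold change -0.44, unadjusted p = 0.0423, edgeR), as did 5.2% of all genes. The part of any of these cells in the spread of the cell cycle genes was not tested.

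Of the other lists, the stellate cell and cholangiocyte genes had their highest summed level in *Lpcat3*KOMac mouse 2, at 167 and 1.14 CPM, against 92.4 and 0.935 CPM in mouse 3. The dendritic cell sum was nearly equal in *Lpcat3*KOMac mice 1 and 2, at 11.49 and 11.51 CPM, with 8.46 CPM in mouse 3. Of the 5 dendritic cell genes, 0 were highest in mouse 2. The part of these lists in the spread of the cell cycle genes was not tested. Summed levels were 85.7 to 215 CPM in WT and 109 to 186 CPM in *Lpcat3*KOMac for 5 monocyte genes, with *Plac8* the most abundant per kb and *Chil3* above WT in every *Lpcat3*KOMac mouse. They were 80.3 to 157 and 78.7 to 142 CPM for 5 neutrophil genes, of which *Csf3r* made up most, *S100a8* lay above WT in every *Lpcat3*KOMac mouse and the defining gene *Ly6g* was at 0 in 3 libraries. Summed B cell and plasma cell genes (*Cd79b* most abundant per kb) were at 16.4 to 46.8 and 23.1 to 33.3 CPM, and erythroid genes (*Hbb-bs*) at 59.6 to 99.9 and 94.0 to 100.03 CPM. Sinusoidal endothelial genes (*Stab2*) were at 795 to 909 and 880 to 1063 CPM, and stellate cell genes (*Dcn*) at 42.9 to 137 and 92.4 to 167 CPM. Cholangiocyte genes (*Epcam*) were at 0.319 to 0.678 and 0.895 to 1.14 CPM, with no overlap between groups, and dendritic cell genes (*Zbtb46*) at 6.09 to 9.32 and 8.46 to 11.5 CPM. The cholangiocyte sum rests on few counts, at most 23 for any of its genes in a library. For single genes such as *Chil3* and *S100a8*, all *Lpcat3*KOMac values lay above WT in 2.29% of all genes.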

How the data were processed

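The authors deposited 1 table of raw read counts per gene for each of 6 libraries (poly-A selected, NEBNext Ultra). Per the labels, reads were trimmed with Trimmomatic 0.36, aligned to GRCm38 with STAR 2.5.2b and counted with featureCounts of Subread 1.5.2. Strand and multi-mapping settings are not given in the sources used here. The exon Length deposited with the counts is in bases. Of 49315 gene identifiers, 49056 were found in GENCODE M21.

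Genotypes came from the sample titles. Genes passing edgeR's filterByExpr (minimum count 10) entered a fit in R 4.3.3 with edgeR 4.0.16 (TMM, robust quasi-likelihood F test, Benjamini-Hochberg over the genes tested, threshold 0.05). The test was run on simulated data with a lower dispersion than that of these libraries, so that check does not show its power here. The study's methods name no test for these counts. List means used log2 CPM with a prior count of 2. Alternatives were DESeq2 1.42.0, limma 3.58.1 (voom), other scalings and filters, a hepatocyte covariate, the replicate number, and leaving out mice. The labels number the libraries and name a mouse as donor, and no source says whether animals were pooled, so p-values measure the spread between these libraries. Intervals of single counts cover counting error only.

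The members and lists were chosen with earlier results of these data known. Values in every library are given for *Mki67*, for the 3 largest and 3 smallest log2 fold changes, and for the most and least abundant member per kb of each phase, and of each pathway list the 2 genes with the smallest p are named. Of each marker list, the most abundant gene per kb and any gene whose groups did not overlap are named.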

Additional observations from a re-analysis of the deposited data

How the results depend on the processing

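Of the results above, the count of called members stayed at 0 in every alternative run, and its threshold was not passed by any member. DESeq2 called 12 genes in place of 0, *Lpcat3* among them (-1.55, adjusted p = 0.00286), and over the other alternatives its adjusted p was 0.0591 to 1. Total counts alone left 9 members below 0. With both hepatocyte-rich libraries left out, a setting chosen after seeing the data, 38 were below 0, the member median was -0.35, the difference of the list mean -0.38, 4 members had an unadjusted p under 0.05 and 19 did not overlap. The cause was not tested. Leaving out each mouse in turn gave 4 to 37 members below 0, a median from -0.21 to 0.24, a difference of the list mean from -0.23 to 0.22, 0 to 3 members at an unadjusted p under 0.05 and 0 to 8 that did not overlap. The most below 0 (37) and the most without overlap (8) came without *Lpcat3*KOMac mouse 2, the fewest below 0 (4) without *Lpcat3*KOMac mouse 3, and the 3 at an unadjusted p under 0.05 without WT mouse 1. With 3 mice a group, differences smaller than the intervals of the report were not detectable. Larger ones could also go uncalled, since the intervals are not adjusted for the number of genes. *Lpcat3*, with an edgeR log2 fold change of -1.56 and an interval from -2.21 to -0.90, was not called by edgeR.

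Replicate numbers are shared by the genotypes, and the deviations of same-numbered mice from their group means had a mean correlation of -0.18 (range -0.596 to 0.36, against 0.11 for other pairs). With so few mice the deviations within a group depend on each other, so these values cannot show whether the numbers pair the mice. The fit with the replicate number as a block called 0 genes, with 26 members below 0 and a median of -0.05.

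No member was called in any setting, so these signs are of log2 fold changes that did not pass the test. The direction stayed for 3 of 38 members with each mouse left out and for 8 of 38 in the other alternatives. With DESeq2's size factors the sign turned for *Cdca8* 0.00063, *Mcm6* 0.0085, *Cdc6* 0.0030, *Cdt1* 0.0092. With total counts alone the sign turned for *Cdk1* 0.044, *Ube2c* 0.028, *Birc5* 0.041, *Cdca8* 0.073, *Kif11* 0.055, *Kif23* 0.042, *Nusap1* 0.012, *Mcm4* 0.025, *Mcm5* 0.038, *Mcm6* 0.085, *Cdc6* 0.081, *Cdt1* 0.079, *Pcna* 0.013, *Uhrf1* 0.00046. With at least 10 counts in every library the sign turned for *Mcm6* 0.0032, *Cdt1* 0.0021. With DESeq2 the sign turned for *Cdca8* 0.00098, *Mcm6* 0.0086, *Cdc6* 0.0036, *Cdt1* 0.0095. With limma-voom the sign turned for *Cdt1* 0.0056, *Rrm2* -0.053. With the replicate block the sign turned for *Aurkb* -0.0018, *Bub1b* -0.012, *Rrm2* -0.072. With the hepatocyte covariate the sign turned for *Mki67* 0.22, *Ube2c* 0.0083, *Birc5* 0.041, *Kif11* 0.053, *Kif23* 0.19, *Cdt1* 0.015, *Rrm2* -0.064. With the hepatocyte-rich libraries left out the sign turned for *Top2a* -0.41, *Ccna2* -0.38, *Ccnb1* -0.28, *Aurka* -0.20, *Aurkb* -0.32, *Plk1* -0.41, *Bub1* -0.33, *Bub1b* -0.36, *Cdc20* -0.32, *Cenpe* -0.48, *Cenpf* -0.46, *Kif20a* -0.25, *Tpx2* -0.28, *Rrm1* -0.24, *Rrm2* -0.39. Over the 6 fits that each lacked 1 mouse, the log2 fold changes whose sign turned ranged as follows: *Mki67* -0.37 to 0.19, *Top2a* -0.21 to 0.36, *Cdk1* -0.31 to 0.24, *Ccna2* -0.20 to 0.41, *Ccnb1* -0.10 to 0.56, *Ccnb2* -0.46 to 0.18, *Aurka* -0.13 to 0.31, *Aurkb* -0.21 to 0.32, *Plk1* -0.19 to 0.38, *Bub1* -0.14 to 0.41, *Bub1b* -0.19 to 0.31, *Cdc20* -0.19 to 0.40, *Ube2c* -0.29 to 0.25, *Birc5* -0.30 to 0.24, *Cdca8* -0.32 to 0.31, *Cenpe* -0.28 to 0.33, *Cenpf* -0.22 to 0.44, *Kif11* -0.26 to 0.30, *Kif20a* -0.078 to 0.49, *Kif23* -0.28 to 0.20, *Tpx2* -0.13 to 0.36, *Nusap1* -0.37 to 0.23, *Mcm2* -0.33 to 0.10, *Mcm4* -0.23 to 0.099, *Mcm5* -0.34 to 0.21, *Mcm6* -0.23 to 0.21, *Mcm7* -0.40 to 0.042, *Cdc6* -0.24 to 0.19, *Cdt1* -0.20 to 0.16, *Gins2* -0.19 to 0.0086, *Rrm1* -0.15 to 0.26, *Rrm2* -0.37 to 0.33, *Tyms* -0.34 to 0.034, *Pcna* -0.12 to 0.0054, *Uhrf1* -0.38 to 0.21.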

Other observations

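Outside *Cdkn2a* and *Cdkn2b*, the widest range among the other cell cycle genes was that of *Mcm10*, a replication factor that joins the MCM helicase, at 56.7, 11.2 and 10.2 CPM in WT and at 12.1, 25.3 and 10.3 CPM in *Lpcat3*KOMac (log2 fold change -0.71, SE 0.799). *E2f8*, a repressing E2F factor, was at 9.37, 4.19 and 4.85 CPM in WT and at 4.56, 8.83 and 3.19 CPM in *Lpcat3*KOMac. Both were highest in WT mouse 1 and next highest in *Lpcat3*KOMac mouse 2, the libraries richest in hepatocyte transcripts, which differs from the order of the 38 genes. *Sgo2a*, a protector of centromere cohesion, ranged 3.66-fold from *Lpcat3*KOMac mouse 3 to mouse 2, more than any of the 38 genes. *Gins3*, a subunit of the same complex as *Gins2*, ranged 1.14-fold. These genes were chosen after their values were seen, and no reason for their ranges was tested.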
